A study of Homo sapiens with 2 samples.

Results

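Polycomb proteins and histone deacetylases silence genes by acting on histones, and 10 genes of these families were followed on the arrays: EZH2, EZH1, EED and SUZ12 of Polycomb repressive complex PRC2, BMI1 of the complex PRC1, the deacetylases HDAC1, HDAC2, HDAC3 and HDAC9, and the sirtuin SIRT1. They were chosen by gene symbol and not by any measured value. Of the 40976 probes for transcripts on the array, 19 probes with 28 spots carried 1 of these symbols. In cells treated with siRNA against Ep-CAM, 9 of the 10 genes could be compared with untreated cells. The brightest measured probe of each of the 9 read lower, by log2 ratios of -0.01 for EZH1 to -0.78 for EED, where 55% of all measured genes did. For EZH1, BMI1, HDAC2 and HDAC9 the ratio was smaller than the error that the scanner software gave for it. The sign of EZH1, and of HDAC2 and HDAC9, turned under some other scalings or corrections, which left 7 to 9 genes below 0. None reached the 2.0-fold ratio at which a gene was called changed, which 1.3% of all genes reached upward and 0.875% downward. The SIRT1 probe was too dim on both arrays to compare.

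Y79 is a human retinoblastoma cell line, and Ep-CAM (epithelial cell adhesion molecule) is a cell surface adhesion protein. RNA was hybridised to 2 Agilent arrays of the whole human genome in a single color, 1 of siRNA-untreated Y79 cells and 1 of Y79 cells 48 h after Ep-CAM siRNA. By the study's methods, both cultures had first been exposed to 5 µM 5′-azacytidine (AZC), a DNA demethylating agent used to restore Ep-CAM, so neither array is of cells free of AZC exposure. The text of the study names untreated cells as the reference on the arrays, and in 1 legend a nonsilencing siRNA. The study's text speaks of biologic replicates. The files used here hold 1 array per condition. There was therefore no replicate, no test and no p-value, and every difference is one between these 2 arrays.

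PRC2 places methyl groups on a lysine of histone H3, with EZH2 or EZH1 as the catalytic subunit and EED and SUZ12 as subunits without which the enzyme is not active. PRC1, to which BMI1 belongs, attaches ubiquitin to histone H2A. HDAC1, HDAC2 and HDAC3 are class I deacetylases that act inside large corepressor complexes, HDAC9 is a class IIa deacetylase that binds MEF2 transcription factors, and SIRT1 is a deacetylase that depends on NAD. Retinoblastoma usually arises after loss of the RB1 gene, whose protein restrains the E2F transcription factors, and EZH2 is a known E2F target.

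A value of a probe is its background-subtracted signal in arbitrary units, and the log2 ratio is siRNA-treated minus siRNA-untreated after each array was divided by its own median signal (48.8 untreated, 50.0 treated). Measured probes, those well above background on both arrays, had a median log2 ratio of -0.03 with an SD of 0.33 over 26992 probes. The technical spread of a ratio was estimated from probes printed many times, whose spots differed with a median SD of 0.14, and from the scanner software's error model, whose median error was 0.22. The corner where the last rows and columns meet was set apart by an earlier analysis after changed spots had been seen to gather there. The 4391 measured probes in this corner had an SD of 0.51, against 0.29 for the rest, and 2 of the 19 probes lie in it altogether. The corner's part in the values read there was not tested beyond those given without it. The siRNA target itself could not be followed, because the Ep-CAM probe, named TACSTD1 on the array, gave 15.6 and 12.0 and was well above background on neither array. Of 10 markers of retinoblastoma or photoreceptor lineage, 4 were well above background on each array (CRX, OTX2, ARR3 and ENO2), while NEUROD1, NRL, RCVRN, SYP, GNGT1 and PDE6H were not. Markers of fibroblasts were above background for 4 of 5 genes, of blood for 4 of 4, of epithelium for 4 of 4 and of retinal pigment epithelium for 3 of 4, so these markers did not set the labelled cell type apart. The scaled signal summed over all probes of the lineage markers, dim ones included, was 7.16 on the untreated and 6.14 on the treated array. The same sum for the blood markers was 37.8 and 54.1, with the globin HBB going from 331 to 1235. Their part in the ratios below was not tested, and in bulk RNA fewer cells of a type cannot be told apart from less RNA per cell.

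**Figure D1:**
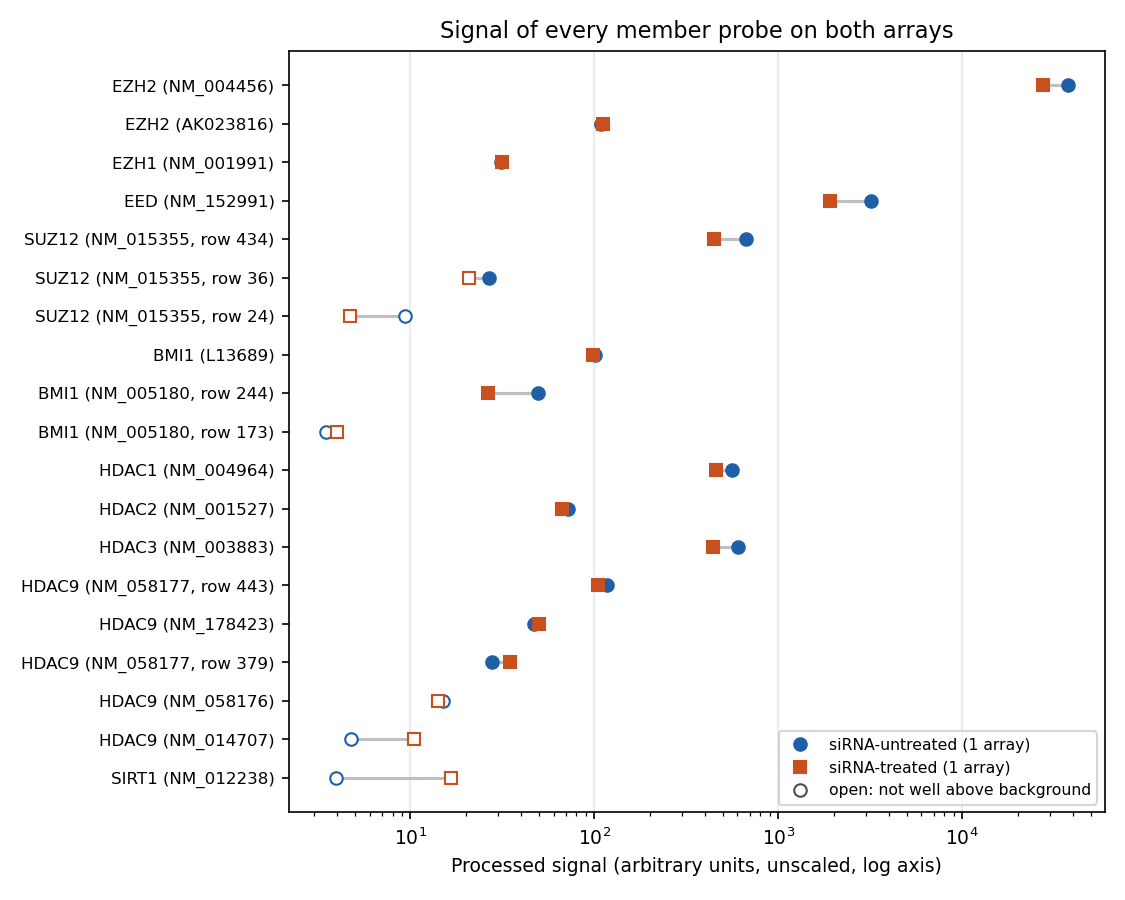
Background-subtracted signal (arbitrary units, unscaled, log axis) of all 19 probes on the siRNA-untreated array (blue circles) and the siRNA-treated array (orange squares), labelled by the transcript each was designed on; open symbols were not well above background. EZH2, EED, SUZ12, HDAC1 and HDAC3 have their brightest probe to the left on the treated array, and SIRT1 is open on both.

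The core subunits of PRC2 read lower after siRNA at 1 probe each, while EZH1 gave nearly equal signals. EZH2, the methyltransferase, has a pair of probes, of which the first 30 of 60 bases are shown because they gave different ratios. Their positions, as for all probes here, are those of the array design on genome build hg17, and the annotation of exons and UTRs on that build was not used here.
EZH2 probe of NM_004456: tttattgccttctcaccagctgcaaagtgt
EZH2 probe of AK023816: atatctttctcctgttgatctcacttgatt
The probe of the mRNA NM_004456 (chr7:147942169-147942228, minus strand) gave 37424 on the untreated and 27349 on the treated array, a log2 ratio of -0.49 with an error-model error of 0.20. The probe of the cDNA AK023816 (chr7:148008767-148008826, minus strand, 66539 bases from the other) gave 109 and 112, a log2 ratio of 0.01 with an error of 0.21. The mRNA probe was therefore lower on the treated array and the cDNA probe differed by less than its error.

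The 0.49 between the EZH2 probes is not rare, since 24.1% of the 3964 genes with 2 or more measured probes had probes at least this far apart. Bright probes also read lower as a class on the treated array. The 130 measured probes whose mean signal lay within 0.5 log2 units of the EZH2 mRNA probe had a median log2 ratio of -0.25 (SD 0.30), and 16.9% of them were at or below EZH2. Among all measured probes 7.17% were at or below it. Spots around it on the array had a median log2 ratio of 0.06.

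EED, the subunit that reads the mark PRC2 makes, had the lowest brightest-probe ratio of the 9 genes. Its probe was the only one for EED.
EED probe of NM_152991 (first 30 bases): atcttgctagtaagggcacgtagagcattt
It lies at chr11:85667277-85667336 on the plus strand and gave 3202 untreated and 1915 treated, a log2 ratio of -0.78 with an error of 0.20. Of all measured probes 2.20% were at or below this value, and of the 572 probes of like signal, whose median was -0.22, 7.69% were. The spot sits at row 531 and column 41, just outside the corner of wide spread, and the spots around it had a median of -0.07.

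SUZ12, the scaffold subunit, has 3 probes, of which 1 was measured on both arrays.
SUZ12 measured probe of NM_015355 (first 30 bases): agcttttcctccaggcctttgagaagccaa
That probe, which spans chr17:27288629-27291453 on the plus strand, gave 665 and 445, a log2 ratio of -0.61 with an error of 0.20. It lies in the corner, where the surrounding spots had a median of -0.28, and it read -0.33 relative to them. A SUZ12 probe outside the corner (chr17:27349869-27349928) gave 26.8 untreated and 20.9 treated, of which the treated value was not well above background, so it was at least 1.31-fold lower there, a log2 bound of -0.39 that is smaller than the probe's error of 0.43. Such bounds set the dim array at the higher of the probe's own value and the lowest signal well above background, 14.9 on the untreated and 17.5 on the treated array. The remaining SUZ12 probe (chr17:27326807-27327674) gave 9.34 and 4.70 and was too dim on both arrays.

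EZH1, the alternative catalytic subunit, had 1 probe (chr17:38106200-38106259, minus strand). It gave 30.9 and 31.5, a log2 ratio of -0.01 with an error of 0.31. An error of this size covers ratios in both directions, so a change smaller than that was not detectable at this signal.

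**Figure D2:**
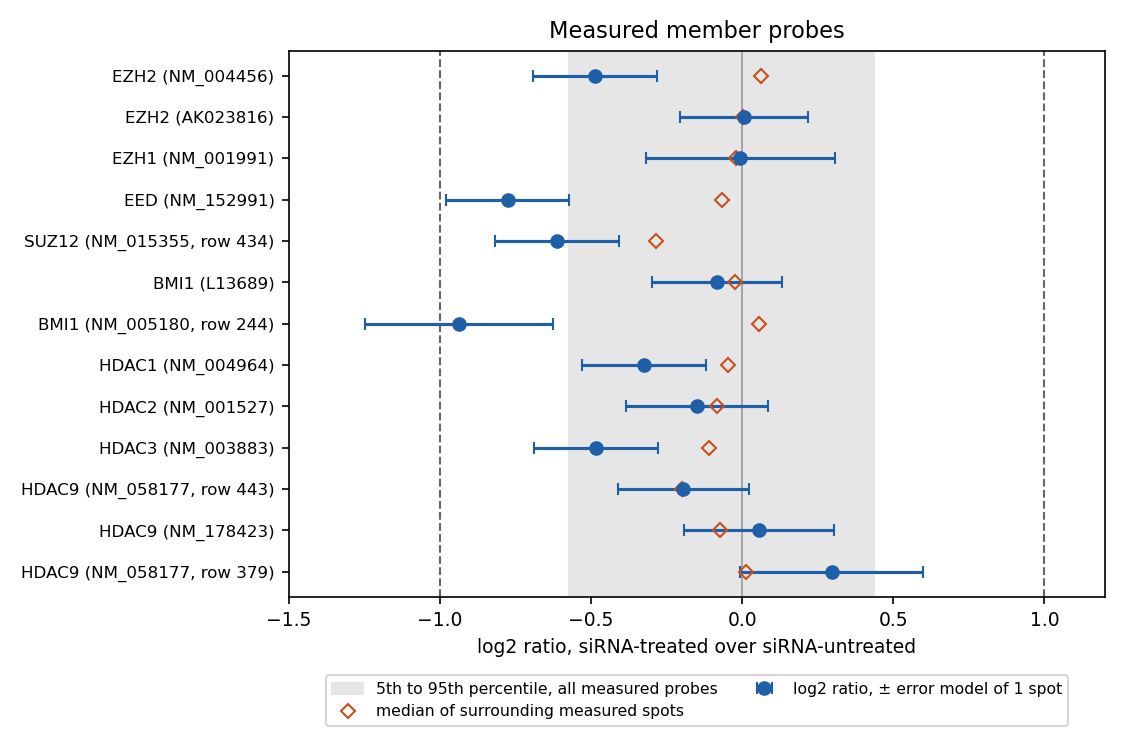
Log2 ratio, siRNA-treated over siRNA-untreated, of the 13 measured probes (blue points, bars show the error model of 1 spot), with the median of the measured spots around each (open orange diamonds), the range from the 5th to the 95th percentile of all measured probes (grey, -0.57 to 0.44) and the 2.0-fold thresholds (dashed). EED, SUZ12 and 1 probe of BMI1 lie left of the grey range, and none crosses a threshold.

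BMI1, the PRC1 subunit that helps the ubiquitin ligase bind, is the gene with the widest disagreement between probes. Both measured probes are shown for that reason, by their first 30 bases.
BMI1 probe of L13689: ttggtcgaacttggtgtgtgttcatcagtt
BMI1 probe of NM_005180: agtttctcagaagtaaaatggacataccta
The brighter probe (chr10:22659818-22659884, plus strand) gave 101 and 98.1, a log2 ratio of -0.08 with an error of 0.22. The other (chr10:22657593-22658001, plus strand) gave 49.1 untreated and 26.3 treated, a log2 ratio of -0.94 with an error of 0.31, and only 1.08% of measured probes were at or below it. The BMI1 probes thus differed by 0.85, a distance that 7.85% of genes with several measured probes reached. A BMI1 probe between them on the chromosome (chr10:22659583-22659642) gave 3.49 and 3.99 and was too dim on both arrays. The surrounding spots of the lower BMI1 probe had a median of 0.06, so its neighbours on the array did not share the value.

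Among the class I deacetylases HDAC1 and HDAC3 read lower and HDAC2 differed by less than its error. HDAC1, a catalytic subunit of the SIN3, NuRD and CoREST complexes, is the only one of the 10 genes with a spread over spots, because its probe (chr1:32468130-32468189, plus strand) was printed 10 times. On the untreated array its spots ran from 496 through a median of 555 to 620, and on the treated array from 396 through 456 to 540. The signals of the arrays overlapped, but 9 of 10 spots were lower on the treated array, with a mean log2 ratio of -0.33 ± 0.19 (SD, n = 10 spots of 1 array pair). The 6 spots outside the corner were all lower, from -0.48 to -0.25, with a mean of -0.35 ± 0.10 (SD). The 4 spots in the corner scattered from -0.61 to 0.09, with a mean of -0.30 ± 0.31 (SD). Spots of 1 array share the RNA, so this spread is technical and says nothing of other cultures. Of all measured probes, 13.7% were at or below the HDAC1 mean.

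**Figure D3:**
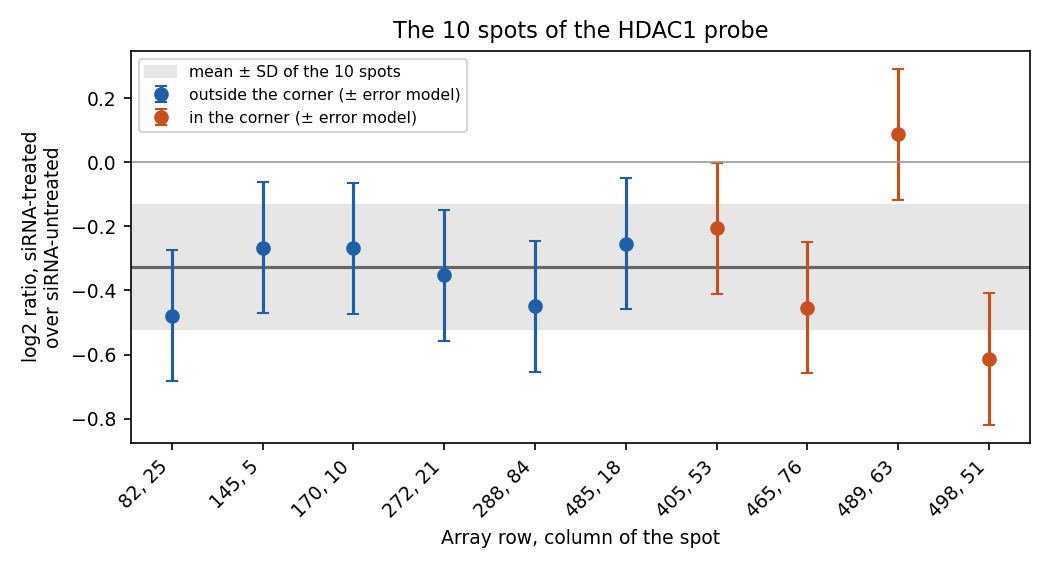
Log2 ratio, siRNA-treated over siRNA-untreated, at each of the 10 spots of the HDAC1 probe, labelled by array row and column; bars are the error model of each spot, and the grey band is the mean ± SD of all 10 (-0.33 ± 0.19). The 6 spots outside the corner (blue) lie below 0 and close together, and the 4 in the corner (orange) scatter from -0.61 to 0.09.

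HDAC3, the deacetylase of the NCOR complexes, had 1 probe of 1 spot (chr5:140985512-140985819, minus strand). It gave 601 and 441, a log2 ratio of -0.48 with an error of 0.20, and the spots around it had a median of -0.11. Of all measured probes 7.28% were at or below it. HDAC2, which shares its complexes with HDAC1, gave 72.1 and 66.6 at its only probe (chr6:114368888-114369566, minus strand), a log2 ratio of -0.15 with an error of 0.24.

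HDAC9 is spliced into several transcripts, and its 5 probes were designed on 4 of them. Those of variants 2 and 1 are shown because they share a run of bases, given in capitals, and then part. The run of 12 bases is the longest they share, and it starts at base 15 of the first probe and base 1 of the second.
HDAC9 probe of variant 2 (NM_058177, bases 15 to 44): CCAAATGAGGTTcggtttatttctttagag
HDAC9 probe of variant 1 (NM_058176, bases 1 to 30): CCAAATGAGGTTggaacaggccttggagaa
The variant 2 probe (chr7:18648427-18648486) gave 117 and 105, a log2 ratio of -0.20 with an error of 0.22, equal to the -0.20 of the spots around it. The variant 1 probe (chr7:18648441-18648813) gave 15.0 and 14.2 and was too dim on both arrays, so its change could not be measured. Signals of different probes are not levels of RNA that can be ranked.

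The other HDAC9 probes gave no shared direction. The probe of variant 4 (NM_178423, chr7:18809897-18809956) gave 47.3 and 50.3, a log2 ratio of 0.05 with an error of 0.25. A further probe of variant 2 (chr7:18575041-18575100) gave 27.7 and 34.8, a log2 ratio of 0.30 with an error of 0.30, the highest of the 13 measured probes. The probe of variant 3 (NM_014707, chr7:18481242-18481301) gave 4.78 and 10.4, not well above background. The HDAC9 probes spanned 0.49, and 24.3% of genes with several measured probes spanned as much.

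SIRT1 had 1 probe (chr10:69347566-69347625, plus strand), which gave 3.93 untreated and 16.7 treated. Neither value was well above background, and no ratio is given.

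Counted over probes, 0 of the 14 with a ratio or a bound were called higher and 0 lower, where 1.27% of all 29345 such probes were called higher and 0.927% lower. Of the 13 measured probes 10 were below 0 and 3 above, with a median of -0.20. Over genes, all 9 measured were below 0 (7 to 9 under other processing) with a median of -0.33. Of all 22098 measured genes 55% were below 0, with a median of -0.02, a share not matched for signal. For EZH1, BMI1, HDAC2 and HDAC9 the ratio, from -0.20 to -0.01, was smaller than the probe's error. With the thresholds in the series text, a ratio above 1.5 or below 0.55, only the lower BMI1 probe passed, on the low side, where 4.01% of all probes passed upward and 1.69% downward.

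**Figure D4:**
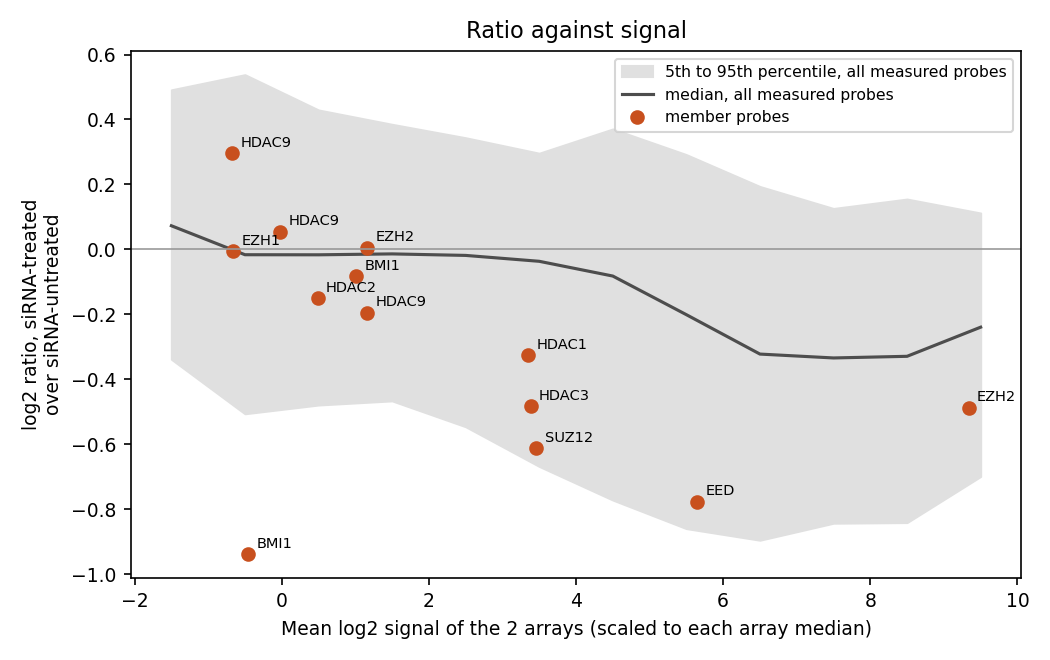
Log2 ratio against the mean log2 signal of both arrays (each scaled to its median) for the 13 measured probes (orange, labelled by gene), over the 5th to 95th percentile (grey) and the median (line) of all measured probes in bins of signal. The median of all probes bends below 0 at high signal, and 1 BMI1 probe lies below the grey band.

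Of the genes that work with PRC2, all 8 were measured and 0 were called. Their brightest probes were all below 0, where 55% of all measured genes were, with a median of -0.13. For RBBP4, PHF1, PHF19 and AEBP2 the ratio, from -0.09 to -0.04, was smaller than the technical SD of 0.14, and another measured AEBP2 probe read 0.15. MTF2, at -0.17, was within the median error-model error of 0.22. YY1, a DNA-binding protein linked to Polycomb, gave 1286 and 905, a log2 ratio of -0.54. JARID2, which helps PRC2 bind chromatin, gave 8532 and 6113, a log2 ratio of -0.52. The histone chaperones of the complex differed from each other, with RBBP7 at 26465 and 20982 (-0.37) and RBBP4 at 341 and 341 (-0.04). They also differed in signal, and bright probes read lower as a class. When all measured probes were binned by mean signal, the median was -0.33 in the bin of RBBP7 and -0.02 in that of RBBP4. The bin of JARID2 had a median of -0.33. Both RBBP7 and JARID2 lay above the 5th percentile of their bins, -0.84. The part of signal in these single ratios was not tested.

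Genes of PRC1 lay on both sides of 0. Of 22 genes 19 were measured, 0 were called in either direction, 9 were below 0 and 10 above, and the median was 0.01. The ubiquitin ligases RING1 and RNF2 read 0.13 and -0.21. The chromodomain protein CBX7, which binds methylated histone H3, read 0.29, from 831 to 1038.

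The partners of HDAC1, HDAC2 and HDAC3 in their corepressor complexes were mostly below 0, at 18 of 21 measured genes. Their median was -0.10, and 55% of all measured genes were below 0. For BRMS1, CHD3, GATAD2B, GPS2, KDM1A, MBD3, MTA2, SIN3A, SIN3B and TBL1X the ratio, from -0.135 to -0.02, was smaller than the technical SD of 0.14. TBL1XR1, at -0.18, was within the median error-model error of 0.22. RCOR1, the scaffold of the CoREST complex, gave 174 and 93.4 at its brightest probe, a log2 ratio of -0.93, and -0.42 at another measured probe. SAP18 of the SIN3 complex gave 8126 and 4966 (-0.75), and -0.45 at another probe. CHD4, the ATPase of the NuRD complex, gave 6053 and 3735 (-0.73). All measured probes in the signal bin of the brightest SAP18 probe had a median of -0.33 and a 5th percentile of -0.84. In the bin of CHD4 these were -0.32 and -0.90, so SAP18 and CHD4 both lay within the range of probes of like signal. The brightest RCOR1 probe lay below the 5th percentile of its bin, -0.47. NCOR1, the corepressor that carries HDAC3, disagreed between probes, at -0.55, 0.14 and 0.08. Of the 22 genes with a ratio or a bound 1 was called lower, SUDS3 of the SIN3 complex, where 0.875% of all genes were. It gave 43.9 and a treated value of 17.4 not well above background, at least 2.57-fold lower. The SUDS3 spot lies in the corner.

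The deacetylases outside the 10 genes lay on both sides of 0. All 7 were measured, 0 were called, 3 were below 0 and the median was 0.12. HDAC5, a class IIa enzyme like HDAC9, had the highest ratio, 0.39 from 2725 and 3667, and read 0.46 and -0.08 at other probes. HDAC8, the remaining class I enzyme, read 0.28, from 643 to 800, in the corner, and -0.05 at a probe outside it. The 6 other sirtuins had a median of -0.14 with 0 called, and SIRT7, which acts in the nucleolus, read -0.73, from 244 to 151.

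The MEF2 factors bound by HDAC9 include both a called rise and a called fall at single spots in the corner. Of all probes with a ratio or a bound, 1.27% were called higher and 0.927% lower. MEF2C gave 13.8 untreated, not well above background, and 71.6 treated, at least 4.68-fold higher. MEF2A gave 320 and 145 at a corner probe, a log2 ratio of -1.17, but 348 and 264 at its brightest probe outside the corner, a log2 ratio of -0.44. MEF2B read -0.86 at its brightest probe, in the corner, 0.08 and -0.26 at other probes in the corner and -0.05 at the probe outside it. MEF2D read 0.06 in the corner and -0.23 outside.

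Enzymes that undo or oppose these marks mostly read lower as well, none past the threshold. Of 13 genes 10 were measured, 9 were below 0 (55% of all measured genes were), 0 were called and the median was -0.20. For ASXL1, BAP1 and KAT2A the ratio, from -0.11 to -0.02, was smaller than the technical SD of 0.14. KAT5 at -0.19 and KAT6B at -0.20 were within the median error-model error of 0.22. The demethylase KDM6A, which removes the PRC2 mark, gave 3835 and 2967 (-0.40). Among the acetyltransferases KAT6A read -0.71, from 184 to 115, but 0.54, from 26.4 to 39.3, at another measured probe. KAT2B read -0.52, from 5288 to 3765 in the corner, and CREBBP read -0.26, from 1114 to 955. KDM6A and KAT2B lay in a signal bin where all measured probes had a median of -0.32 and a 5th percentile of -0.90. The lower KAT6A value lay below the 5th percentile of its bin, -0.47.

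Genes of proliferation, with which PRC2 levels are known to go, showed no common direction. Of 16 genes 11 were measured, 6 were below 0, and the median was -0.02. PCNA, the replication clamp, was called lower, from 1782 to 629, a log2 ratio of -1.53 ± 0.08 (SD, n = 10 spots, 1 of them in the corner). E2F3 read -0.58, from 2636 to 1809, E2F2 -0.61, from 680 to 458 in the corner, and E2F1 0.05, from 52.7 to 55.9. The other measured E2F2 probe, outside the corner, read 0.10.

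**Figure D5:**
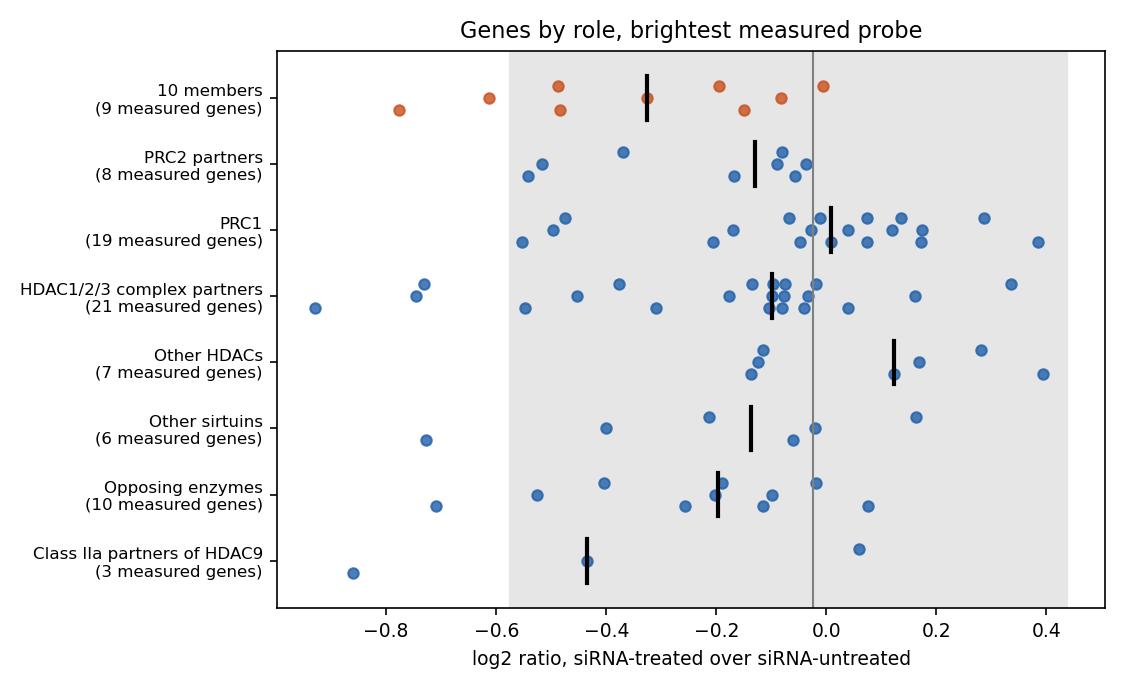
Log2 ratio, siRNA-treated over siRNA-untreated, of each measured gene by its brightest measured probe, for the 10 genes (orange; 9 measured) and the 7 lists of related genes (blue); black bars are medians, the grey line is the median of all genes and the grey area the 5th to 95th percentile of all measured probes. The PRC2 partners lie below 0, the other deacetylases on both sides with a median of 0.12, and bounds (MEF2C, SUDS3) are not drawn.

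The promoters of EZH2, EED and SUZ12 are shown because these PRC2 core genes each had a measured probe that read lower by more than its error. Each is the 250 bases before a transcription start in RefSeq on build GRCh38.p14, on the gene's strand, and capitals mark CCAAT on either strand (ATTGG on the printed one) or an E2F form. The letters searched for E2F were TTTCCCGC, TTTGGCGC, TTTCGCGC and TTTGCCGC on both strands, chosen after the sequences had been seen. EZH2 has 2 starts in the table, of which the one shown was used.
EZH2 promoter (chr7:148884292-148884541, minus strand): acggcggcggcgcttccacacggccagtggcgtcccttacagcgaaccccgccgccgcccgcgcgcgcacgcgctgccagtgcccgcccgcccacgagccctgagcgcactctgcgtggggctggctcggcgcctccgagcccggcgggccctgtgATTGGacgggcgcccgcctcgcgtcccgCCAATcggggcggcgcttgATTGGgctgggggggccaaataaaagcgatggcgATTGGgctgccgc
EED promoter (chr11:86244503-86244752, plus strand): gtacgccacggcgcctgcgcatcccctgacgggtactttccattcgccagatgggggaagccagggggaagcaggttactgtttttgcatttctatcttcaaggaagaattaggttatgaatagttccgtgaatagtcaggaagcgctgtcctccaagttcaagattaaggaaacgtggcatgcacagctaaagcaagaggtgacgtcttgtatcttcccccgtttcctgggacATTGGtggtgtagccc
SUZ12 promoter (chr17:31936757-31937006, plus strand): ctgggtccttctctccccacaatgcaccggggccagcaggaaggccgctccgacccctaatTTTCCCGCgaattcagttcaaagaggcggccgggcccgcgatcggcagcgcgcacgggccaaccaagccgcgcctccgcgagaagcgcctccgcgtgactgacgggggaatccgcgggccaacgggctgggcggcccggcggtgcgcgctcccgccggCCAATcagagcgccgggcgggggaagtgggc
All 10 genes had such a window. CCAAT was in those of EZH2, EED, SUZ12, HDAC1 and HDAC9, and in a window of 37.0% of all 27305 genes. An E2F form was in those of SUZ12 and EZH1, and in a window of 3.4% of all genes. Because the E2F forms were chosen after the sequences had been seen, these values cannot be compared as an excess. The GC box GGGCGG, which is not marked, was in 8 of the 10 and in a window of 46.2% of all genes. These are matches of letters and not measured binding, and their part in the ratios was not tested.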

How the data were processed

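Cells, arrays and groups are those of the labels, with 1 array per condition; the siRNA time and AZC exposure are from the study's methods. The deposited files hold spot intensity, which the authors extracted with Agilent Feature Extraction (9.5.3.1 in the file headers). The processed intensity is background-subtracted and not scaled between arrays. Leaving out control spots and spots the software marked as outliers, each signal was scaled to the 50th percentile of its array with a floor of 0.01, log2 was taken, and a probe's spots were averaged. A probe counted as above background if 50% or more of its spots did, and was called at a log2 ratio of at least 1 or of -1 or less. Of several probes of a gene, the brightest measured one stood for the gene. All symbols of the 10 genes were used, and for the other lists each gene called plus a few partners. The genes, lists and named partners were chosen with earlier results of these data known. The accession of 14 of the 19 probes was found in RefSeq, as was that of 185 of the 207 probes of all lists. Of the opposing enzymes, KDM6B was not analysed here. The series' value table, which held the raw median intensity per the check of both columns (medians 120 and 123, neither background-subtracted nor scaled), served as an alternative. The number of arrays limits the precision. The ratio calculation was tested on simulated data. Python 3.11.15, pandas 2.3.3 and limma 3.58.1 (normexp) were used.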

Additional observations from a re-analysis of the deposited data

How the results depend on the processing

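No paired analysis was possible because each condition has 1 array. There were 15 alternatives, of which 2 (signal trend, and normexp without spots dimmer than their background) were chosen after seeing the data. Under the 15, 172 of 194 values of the measured probes of the 10 genes moved by less than 0.14, and 22 moved by more. Several alternatives could not move these values: the floor, the filters on dim probes, the thresholds and the mean over a gene's probes. Scaling to another value, or none, shifted all probes alike, so the 172 is no measure of stability. The EZH2 mRNA probe ran from -1.02 to -0.21, EED from -1.28 to -0.51, HDAC3 from -0.88 to -0.37, HDAC1 from -0.75 to -0.24, the lower BMI1 probe from -0.99 to -0.27 and the SUZ12 probe from -1.02 to -0.33, the last under every alternative but the one that leaves out its spot with the corner. Of the 9 genes below 0, 8 were below 0 under 75th percentile scaling, no scaling, scaling to probes measured on both arrays and normexp (EZH1 above 0, at most 0.05), the raw value table (HDAC2 at 0.01) and the mean over probes (HDAC9 above 0). Position correction left 7, with EZH1 at 0.01 and HDAC9 at 0.0042. Without the corner 8 genes were measured and all 8 were below 0.

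The normexp background correction shifted the median of all measured probes from -0.03 to -0.20 and called 3.6% of all probes lower. With it, 3 of the 10 genes were called lower (EZH2 at -1.02, EED at -1.28, SUZ12 at -1.02), the median of the 10 was -0.75, and of the related genes in the 7 lists, where the processing above called 1 higher and 1 lower with a median of -0.09, 0 were called higher and 9 lower with a median of -0.48. The EZH2 probes then differed by 0.72 and the BMI1 probes by 0.013. Without spots dimmer than their background, normexp called 0 of the 10 genes, 0 related genes higher and 0 lower. Of all probes 0.436% were then called higher and 0.259% lower. The probes of EZH2, BMI1 and HDAC9 then differed by 0.30, 0.38 and 0.20.

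With the raw value table, 0 related genes were called higher and 0 lower, where 0.303% and 0.273% of all probes were. The probes of EZH2, BMI1 and HDAC9 then differed by 0.24, 0.30 and 0.13. Quantile normalization put the EZH2 difference at 0.23 and the signal trend at 0.26, with the EZH2 mRNA probe at -0.24 and EED at -0.57 under the latter. Position correction left 0 related genes lower, where 0.808% of all probes were, and the HDAC9 difference at 0.28. With probes measured on both arrays only, with the mean over a gene's probes, or without the corner, 0 related genes were called higher and 0 lower. Without the filter on dim probes 1 of the 10 genes, SIRT1, was called higher and 2 related genes lower. The SIRT1 values, 3.93 and 16.7, were not well above background. The share of all probes called was not computed for that setting. The thresholds of the series text called 2 related genes lower, where 1.69% of all probes passed downward. Probes near background, such as EZH1, bound only large changes.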
